A study of Homo sapiens with 31 samples.

Results

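The circRNAs described here arise from genes of the centrosome and the cilium. They were chosen by gene symbol alone, with no measured value: a circRNA was included where the transcript it is named after belongs to a gene whose symbol begins with CEP, NEK or TTC and a digit, or with IFT, BBS, CFAP, NPHP, TMEM67 or RPGRIP1, or is ALMS1, AHI1, OFD1, PCM1, PCNT, CDK5RAP2, AKAP9, WDR19, WDR35 or TBC1D32. The rule itself was chosen with earlier results of these data known. It gave 1318 of the 55371 circRNAs in the deposited list, from 122 of the 225 genes of the annotation that fit the rule, with 19494 of 1029205 back-splice reads (1.89%). Cells of H9, an established line of human ES cells, were differentiated towards three-dimensional retina, and total RNA depleted of ribosomal RNA was sequenced in 15 libraries, 3 each at day 0, at day 45 and day 90 without treatment, and at day 45 and day 90 with recombinant IGF-1, a growth factor given at 5 ng/ml up to day 37 and at 10 ng/ml afterwards. All groups are the same line, plated in triplicate, so that replicates are cultures of 1 line and p-values measure the spread between these cultures. Cells were harvested without selecting embryoid bodies, and the libraries therefore hold every cell type of the culture.

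A circRNA forms when the 3′ end of an exon is joined to the 5′ end of an exon that lies upstream, and it is counted by reads that cross this back-splice junction. The centrosome organises microtubules around a pair of centrioles, and in most cells that have left the cell cycle a centriole becomes the basal body of a primary cilium. Cargo moves along the cilium by intraflagellar transport (IFT), membrane proteins leave it with the BBSome, and entry is controlled at the transition zone. In the retina the outer segment of a photoreceptor is a modified cilium, and mutations in many of these genes cause ciliopathies with retinal degeneration. Genes that begin with TTC are named after the tetratricopeptide repeat, a protein domain, and several of them, such as the ubiquitin ligase TTC3, are not known mainly as cilium genes.

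The junctions below show which sequence identifies a circle. They belong to member circRNAs with many reads whose junction lies in coding sequence on both sides, and each joins the last 30 bases of the donor exon, in lower case, to the first 30 bases of the acceptor exon, in capitals, 5′ to 3′ on the strand of the gene (GRCh37 genome, whose coordinates are those of hg19).
CEP70, chr3:138289160-138290198, minus strand: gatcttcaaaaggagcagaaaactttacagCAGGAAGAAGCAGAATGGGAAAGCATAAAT
TTC28, chr22:28692186-28693840, minus strand: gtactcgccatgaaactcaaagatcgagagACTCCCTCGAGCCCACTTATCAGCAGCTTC
TTC3, chr21:38480692-38501363, plus strand: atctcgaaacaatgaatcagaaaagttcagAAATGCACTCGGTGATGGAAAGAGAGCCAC
CEP350, chr1:179972309-179975702, plus strand: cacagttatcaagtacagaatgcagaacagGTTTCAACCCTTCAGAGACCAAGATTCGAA
NEK4, chr3:52771602-52775515, minus strand: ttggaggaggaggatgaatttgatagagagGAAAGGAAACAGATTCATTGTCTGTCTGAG
PCNT, chr21:47768926-47769734, plus strand: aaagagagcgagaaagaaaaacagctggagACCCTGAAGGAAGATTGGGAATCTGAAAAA
BBS9, chr7:33407379-33427756, plus strand: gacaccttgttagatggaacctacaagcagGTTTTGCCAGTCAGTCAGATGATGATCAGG
IFT81, chr12:110566755-110584853, plus strand: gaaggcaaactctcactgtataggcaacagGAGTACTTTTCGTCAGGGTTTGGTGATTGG

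In the genome, AG stood before the acceptor exon and GT after the donor exon at 1299 of the 1318 circRNAs, and at all 1318 when GC was allowed in place of GT. The circles ran over more exons than those of other genes. Their median was 5 exons and 653 spliced bases over a span of 13800 bases, against 4 exons, 509 bases and 9960 bases for the 47074 other circRNAs with an annotated transcript. The transcripts in which the circles were counted also had more exons, with a median over circRNAs of 25 for members and 18 for the others. In these medians a gene counts once for each of its circles. Circles that start at exon 2 made up 15.6% of members and 22.1% of the others, and 12% against 10.0% held the annotated start codon. The spliced length was a multiple of 3 for 41.0% of members and 37.9% of the others. Within 2000 bases of the circle, an inverted match of at least 100 bases and 70% identity between both flanking introns was found for 140 of 292 members with at least 10 reads (47.9%), and for 5731 of 10632 others (53.9%). These shares describe sequence and were not tested.

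Most members were rare. A total of 481 (36.5%) had 1 read over all 15 libraries, 744 were found in at least 2 libraries and 27 in all 15. The 33 members with at least 100 reads held 47.6% of the reads. Only the 292 members with at least 10 reads were tested, and these held 86.9% of the reads. There were 46 members with 10 or 11 reads just inside this limit and 48 with 8 or 9 reads just outside it. The 9 genes with the most reads held more than 50% of them: CEP70 (2134 reads), a centrosomal protein that binds γ-tubulin, BBS9 (1690), a subunit of the BBSome, TTC3 (1555), CEP192 (1296), which recruits kinases to the centrosome for centriole assembly and spindle formation, CEP350 (998), TTC28 (700), PCM1 (681), the scaffold of centriolar satellites, the kinase NEK1 (647) and IFT81 (632), which binds tubulin as IFT cargo. They were followed by CEP112 (547), CEP128 (435) and TTC39C (432). CEP350, CFAP54 and NEK1 gave the most distinct circles, 74, 51 and 44. The 74 circles of CEP350 used 22 acceptor and 27 donor sites, and 27 of them had 1 read. CFAP54, a protein of the axoneme of motile cilia, gave 51 circles but 130 reads, and its most abundant circle had 25.

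Levels are given as back-splice reads per 1000000 sequenced reads (RPM). Back-splice reads numbered 14992 to 108946 per library. Where a group of 3 libraries had no read, a level of up to 0.00692 to 0.0079 RPM is possible, taking 3 counts as the limit. Untreated day 90 replicate 1 stood apart from the other later libraries, with 309 RPM of back-splice reads against 474 to 984 RPM. The integrity number of the RNA was 9.8 to 10 at day 0, 7.6 to 9.1 at day 45 and 7.1 to 8.9 at day 90, and its part in changes from day 0 cannot be told apart from that of time. Of the circRNAs of 12 pluripotent cell genes, 7 genes had reads, with a summed level of 0.0571 to 0.0961 RPM at day 0 and 0 to 0.0523 RPM later. POU5F1 and NANOG had none in any library. Of 13 neural retina genes only 3 had circRNA reads, with PAX6, RAX, CRX and RCVRN at 0, so that back-splice reads do not check the retinal label. The 6 of 8 neuron genes with reads came to 0.00703 to 0.0214 RPM at day 0 and 0.0548 to 0.281 RPM later. Retinal pigment epithelium genes (5 of 9 with reads, MITF and RPE65 at 0) and mesenchyme and muscle genes (5 of 7, ACTA2 and MYL1 at 0) had no read at day 0 and came to 0 to 0.0907 and 0 to 0.0506 RPM later. The part of cell composition in the results was not tested, and in such bulk libraries more cells of a type and more RNA per cell cannot be told apart.

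CircRNAs of centrosome and cilium genes were more abundant in differentiated cultures than at day 0 in every library. Their summed level was 1.83, 1.79 and 1.56 RPM at day 0 and 18.3, 13.4 and 11.8 RPM in the untreated day 45 replicates 1, 2 and 3. At day 90 it was 5.62, 9.94 and 11.5 RPM. The means were 1.73 ± 0.144 RPM at day 0, 14.5 ± 3.36 RPM at day 45 and 9.03 ± 3.06 RPM at day 90 (SD, n = 3), so that the level at day 45 was 8.39 times and at day 90 5.23 times that of day 0. Back-splice reads of all genes rose 6.33 and 4.11 times. At day 0 and day 45 the replicate numbers also go with the base quality in the study's sequencing list, which was lowest for replicate 1 and highest for replicate 2. Within replicates 1, 2 and 3 the ratio of day 45 to day 0 was 10.0, 7.46 and 7.57, and that of day 90 to day 0 was 3.08, 5.55 and 7.38. Without day 90 replicate 1 the day 90 mean was 10.7 RPM. The share of members among all back-splice reads was between 1.22% and 1.69% at day 0 and between 1.82% and 2.06% in the 12 later libraries, without overlap. A day 0 library held 116 to 128 of the circRNAs from 47 to 51 of the genes, and an untreated day 45 library 420 to 456 from 88 to 91 genes.

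**Figure D1:**
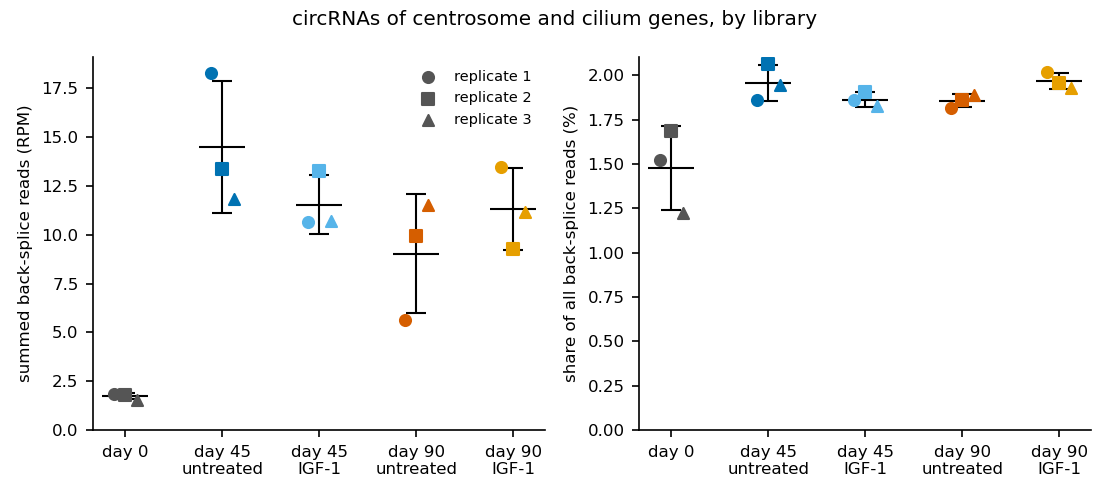
Summed level of the 1318 circRNAs in RPM (left) and their share of all back-splice reads in percent (right) in each library, with symbols for the replicate number and bars for mean ± SD (n = 3). Day 0 lies below 2 RPM and every later library above 5 RPM, and untreated day 90 replicate 1 is the lowest later library at 5.62 RPM.

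At day 45, 131 of the 292 tested members were higher than at day 0 and 0 were lower (edgeR's quasi-likelihood test, adjusted p under 0.05). This has to be read against a rise of circRNAs as a whole: 40.9% of all 12498 circRNAs tested were higher and 0.256% lower, and 44.9% of members were higher. The levels of all 3 day 45 libraries were above all 3 day 0 libraries for 143 members (49%) and 46.2% of all circRNAs. The median log2 change was 3.22 for members and 2.87 for all. At day 90, 68 members (23.3%) were higher than at day 0 and 0 lower, against 21.7% of all circRNAs higher and 0.328% lower, with medians of 2.60 and 2.33. Of the tested members 142 had no read at day 0. They entered through later libraries alone and could not be called lower, and their fitted changes depend on the fit. Among the 41 members with more than 3 counts at day 0 the medians were 2.06 at day 45 and 1.19 at day 90, against 1.78 and 1.09 for the 2485 such circRNAs of all genes. Of these 41 members 26 were higher at day 45 and 16 at day 90, against 1284 and 806 of the 2485. Without day 0 replicate 3 the number of all tested members higher at day 45 was 85. At day 90 it was 44, 39 and 44 without day 0 replicate 1, 2 or 3 and 40 without day 90 replicate 3.

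When counts were scaled to the back-splice reads of the library (TMM) instead of the sequenced reads, which removes the difference in back-splice totals between libraries, 18 members were higher at day 45 and 0 lower (6.16%, against 6.27% of all circRNAs higher and 0.912% lower). The median of all circRNAs was then 1.60 and that of members 2.26. At day 90, 16 members were higher and 0 lower (5.48%, against 5.9% of all higher and 1.04% lower).

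The circle with the most reads was CEP70 exons 4 to 6 (counted in a transcript of 16 exons), 396 spliced bases long and 62.6% of all CEP70 back-splice reads. It had 13, 11 and 6 reads in the day 0 replicates, 135, 109 and 112 at day 45, and 62, 73 and 107 at day 90. Its level rose from 0.0748 to 0.924 RPM at day 45, a log2 change of 3.62 ± 0.472 (SE, adjusted p = 2.4e-12 from edgeR), and was 0.558 RPM at day 90 (2.90 ± 0.468, adjusted p = 5.15e-08). Both other CEP70 circles among the most abundant end at the same donor site and reach 1 exon further upstream, with different starts of that exon, and had 434 and 258 reads. With scaling to back-splice reads the exon 4 to 6 circle was still higher, by 1.84 ± 0.353 at day 45 (adjusted p = 1.67e-05).

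The BBS9 circle of exons 2 to 5 (chr7:33185854-33217203, 453 bases) showed the clearest change by the test. It had 2, 1 and 3 reads at day 0, 99, 99 and 80 at day 45 and 57, 82 and 87 at day 90. The change at day 45 was 5.52 ± 0.584 on the log2 scale (adjusted p = 2.45e-18) and 3.79 ± 0.487 relative to back-splice reads. At day 90 it was 5.07 ± 0.585 (adjusted p = 3.74e-15). The 3′ circle whose junction is printed above, with 178 reads, had 5, 5 and 6 reads at day 0 and 24, 15 and 26 at day 45, a change of 2.06 ± 0.575 (adjusted p = 0.00211).

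The shares of the BBS9 circles also differed between day 0 and later. The exon 2 to 5 circle made up 6 of 42 BBS9 back-splice reads at day 0 (14.3%, exact 95% interval 5.43% to 28.5%) and 57.0% at day 45 (52.4% to 61.4%), and the 3′ circle fell from 38.1% (23.6% to 54.4%) to 13.3% (10.4% to 16.7%). Among single libraries the first share was 8.33% to 22.2% at day 0 and 47.1% to 69.4% later, and the second 28.6% to 55.6% at day 0 and 4.03% to 17.0% later, in both cases without overlap. These shares rest on 9, 12 and 21 BBS9 reads in the day 0 libraries. They were picked after their values were seen and were not tested.

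**Figure D2:**
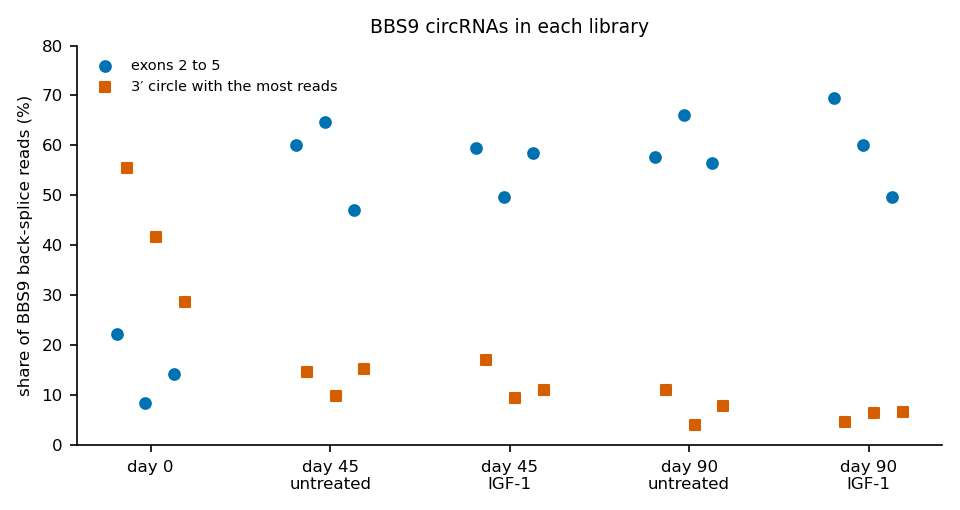
Share of BBS9 back-splice reads, in percent, from the circle of exons 2 to 5 (circles) and from the 3′ circle with 178 reads (squares) in each of the 15 libraries. The exon 2 to 5 circle lies at 22.2% or below in day 0 libraries and at 47.1% or above in later ones, and the order of both circles is turned.

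In the centriole list, both named circles of CEP192 share their acceptor at exon 2. The circle with 638 reads (chr18:12999420-13019205) had 9, 7 and 13 reads at day 0, 46, 88 and 53 at day 45 and 20, 36 and 63 at day 90, a log2 change of 2.71 ± 0.479 at day 45 (adjusted p = 4.16e-07). The longer circle (338 reads) changed by 1.65 ± 0.499 (adjusted p = 0.00485) at day 45 and did not pass the test at day 90 (0.73 ± 0.514, adjusted p = 0.275). Relative to back-splice reads its day 45 value was -0.10, below that of day 0. CEP350, which anchors microtubules at the centrosome, gave a circle of 228 bases with 9, 5 and 8 reads at day 0 and 32, 34 and 46 at day 45 (2.36 ± 0.509, adjusted p = 4.51e-05).

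In the pericentriolar list, the PCM1 circle with the most reads, 291 bases long, had 1, 2 and 1 reads at day 0, 28, 18 and 27 at day 45 and 10, 28 and 28 at day 90. Its log2 change was 4.14 ± 0.682 at day 45 (adjusted p = 4.63e-08). The PCNT circle printed above, from the gene of pericentrin, was the weakest of the 15 most abundant circles next to the longer CEP192 circle. It had 7, 8 and 7 reads at day 0, 21, 31 and 16 at day 45 and 11, 16 and 23 at day 90. The change was 1.67 ± 0.538 at day 45 (adjusted p = 0.00846) and did not pass at day 90 (adjusted p = 0.129). With scaling to back-splice reads the day 45 value was -0.082.

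Among the other abundant circles, NEK4 exons 12 to 14 had 2, 3 and 7 reads at day 0 and 27, 23 and 38 at day 45 (2.89 ± 0.575, adjusted p = 8.41e-06). The TTC28 circle had 3, 1 and 6 reads at day 0 and 50, 57 and 34 at day 45 (3.84 ± 0.558, adjusted p = 3.99e-10). All 3 TTC3 circles among the 15 share 1 acceptor site, and the one printed above, with 423 reads, had 2, 1 and 0 reads at day 0 and 51, 45 and 32 at day 45, a ratio of rates of 43.9 with an exact interval of 14.7 to 216 that covers counting error only. TTC39C had 2, 4 and 3 reads at day 0 and 20, 19 and 23 at day 45.

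Several of the named circles had no read at day 0. IFT81 exons 4 to 10 had 12, 12 and 10 reads at day 45 and 6, 13 and 19 at day 90. Its rates were 11.7-fold and 12-fold the limit of 3 counts over the day 0 libraries. Such folds leave out the counting error of the later reads. CFAP210 had 10, 13 and 9 reads at day 45 and 7, 15 and 16 at day 90, 11-fold and 12-fold this limit. CEP85L had 15, 2 and 10 reads at day 45, and circles of CEP112 had 13, 8 and 9 (chr17:64171162-64179425) and 7, 6 and 7 (chr17:63685247-63746842). At day 90 CFAP47 had 4, 10 and 8 reads, 6.94-fold the limit. The IFT46 circle (154 reads) had 1, 0 and 0 reads at day 0 and 16, 10 and 16 at day 45, and that of IFTAP, an IFT-associated protein, had none at day 0 and 10, 6 and 4 at day 45.

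Of 64 members with at least 60 reads in the 12 later libraries, 56 were found in all 12. Of the other 8, a CEP112 circle (chr17:63739186-63746842, 128 reads) was at 0 in untreated day 90 replicate 1 and IGF-1 day 90 replicate 2. The further CEP112 circle chr17:64171162-64179425 was at 0 in IGF-1 day 45 replicate 1 and untreated day 90 replicate 1. Untreated day 90 replicate 1, where reads were fewest after day 0, was among the zeros of 7 of these 8.

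**Figure D3:**
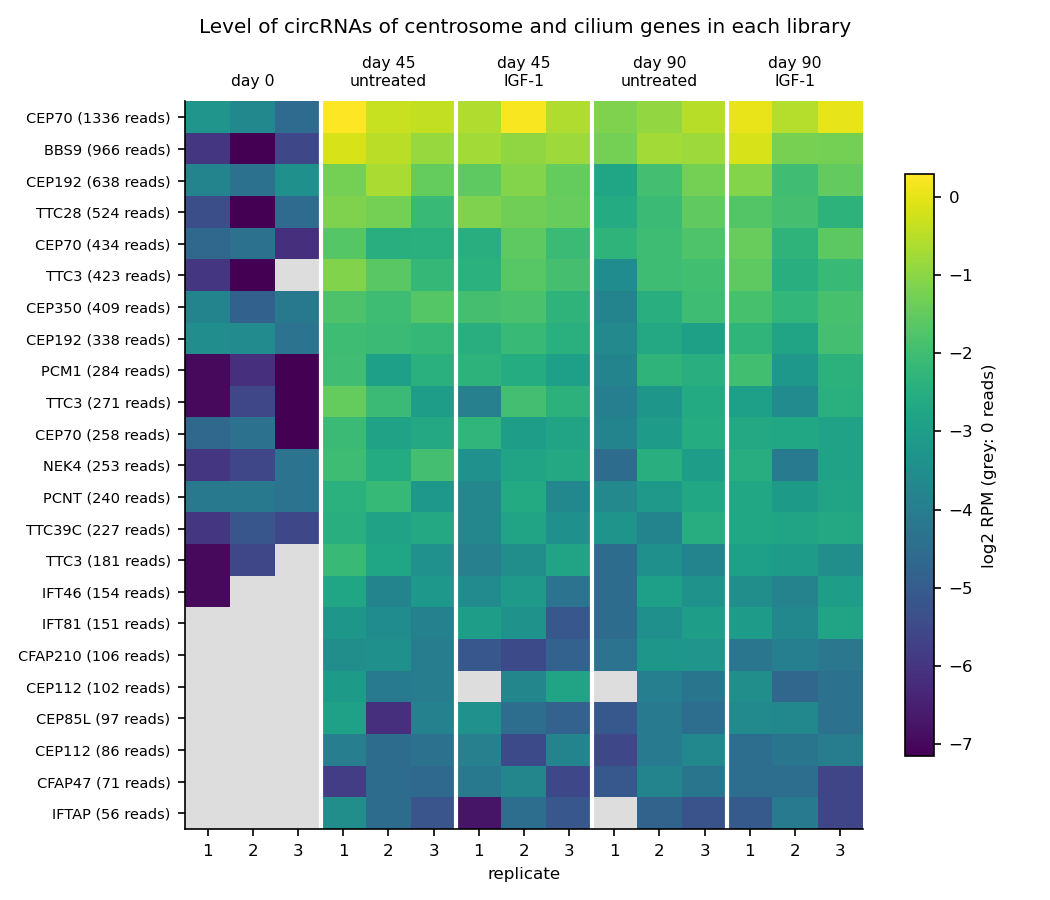
Level of named circRNAs (rows, with the gene and the summed reads) in each library (columns), as log2 RPM, with grey for 0 reads. The rows from IFT81 downward are grey in all 3 day 0 libraries, and CEP112, CEP85L, CFAP47 and CFAP210 are among them.

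Summed over all circles of a gene, 68 of 83 tested genes were higher at day 45 than at day 0 and 0 lower (81.9%, against 61.9% of all 4616 genes tested higher and 0.39% lower). At day 90, 43 were higher and 0 lower (51.8%, against 43.4% higher and 0.672% lower). The medians were 3.14 and 2.28 for members and 2.77 and 2.14 for all genes. Genes without a read at day 0 could not be called lower. Of the 36 member genes with more than 3 counts at day 0, 32 were higher at day 45 and 21 at day 90. For all 1966 such genes it was 1371 and 1006. Tested member genes had more reads than other genes, with a median of 100 against 59, and more reads made a call more likely. Among genes with at least 200 reads, 24 of 24 members and 95.3% of all genes were higher at day 45. Among those with at least 50 but under 200 reads it was 90.9% of 33 members and 79.8% of all, and among those with under 50 reads 53.8% of 26 and 32.1%. At day 90 the shares were 95.8%, 45.5% and 19.2% of members against 86.1%, 53.8% and 14.5% of all, so that members lay below all genes in the middle class. Relative to back-splice reads, 15 member genes were higher and 0 lower at day 45 (18.1%, against 10.8% of all higher and 3.16% lower). At day 90, 15 were higher (18.1%, against 10.8%) and 1 was lower (1.20%, against 3.49%).

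The 15 genes that were higher at day 45 on both scales included TTC3, CEP112, BBS9, IFT81, TTC28, IFT46, NPHP4, CEP70, AHI1, CFAP47, CFAP54, CFAP210, CEP85L and IFTAP. They are named because of this result, outside the rule for named genes. TTC3 had 19 reads at day 0 and 504 at day 45, a log2 change of 4.80 ± 0.480 per sequenced read (adjusted p = 6.18e-21) and of 2.59 ± 0.349 relative to back-splice reads. CEP112 had 3 and 154 reads, a ratio of rates of 52.8 (interval 17.7 to 259). Both IFT-B subunits with the most reads were among these genes, IFT81 with 11 and 180 reads and IFT46 with 3 and 85. AHI1, mutated in Joubert syndrome, had 2 and 56 reads, and NPHP4 had 3 and 91.

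**Figure D4:**
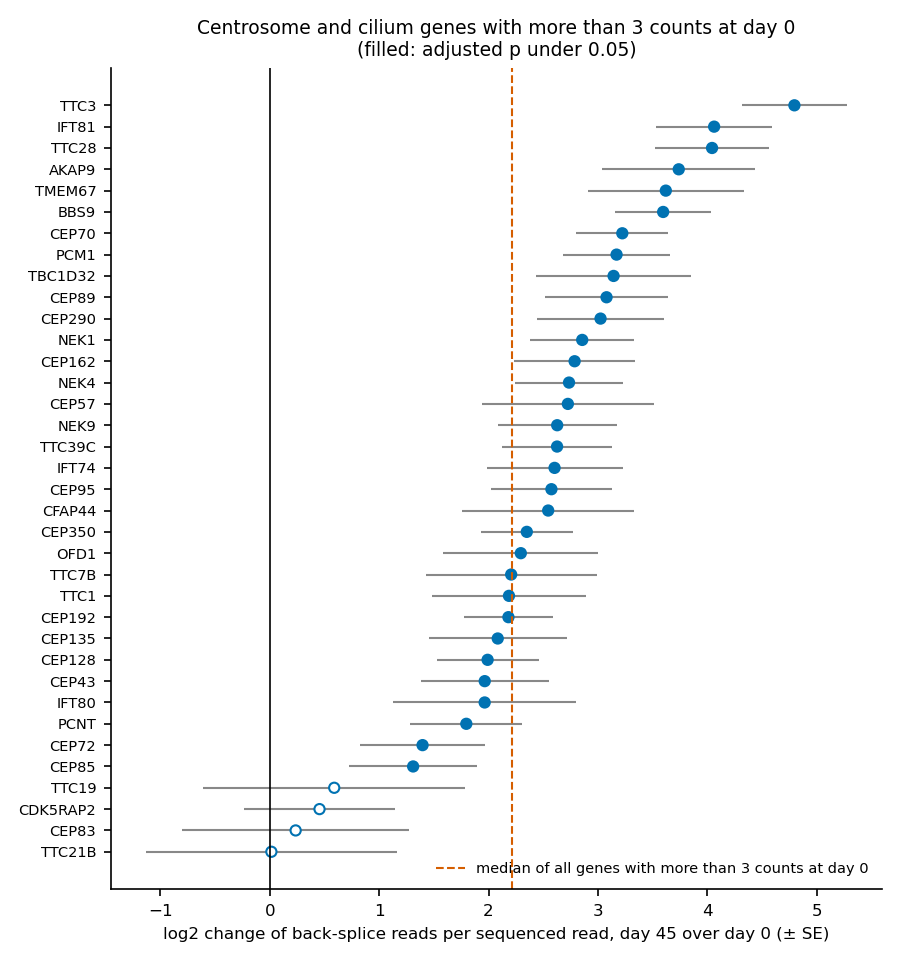
Log2 change at day 45 over day 0, per sequenced read and ± SE, of the 36 member genes with more than 3 counts at day 0, with filled symbols for an adjusted p under 0.05. The dashed line is the median of all 1966 such genes, 2.21, and TTC3 lies farthest to its right, with CDK5RAP2, CEP83, TTC19 and TTC21B below 1 and unfilled.

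The counts of genes by role are per sequenced read unless stated. They were not matched for the number of reads of a gene, which made a call more likely. By role, in the transition zone list 7 of 7 genes were higher at day 45 and at day 90, against 61.9% and 43.4% of all genes. The median change at day 45 was 4.66, but 4 of the 7 had at most 3 reads at day 0, and the median of the other 3 was 3.14. Its summed level was 0.0561 to 0.0633 RPM at day 0 and 0.744 to 1.38 RPM at day 45, 17.8 times higher in the mean. CEP290, a transition zone protein mutated in Leber congenital amaurosis, rose by 3.02 ± 0.582 (adjusted p = 1.22e-06) and the membrane protein TMEM67 by 3.62 ± 0.714 (adjusted p = 2.24e-06) per sequenced read. Relative to back-splice reads neither passed, with 0.81 ± 0.529 (adjusted p = 0.333) for CEP290 and 1.58 ± 0.674 (adjusted p = 0.115) for TMEM67. The BBSome had 3 of 3 genes higher at both times (all genes, 61.9% and 43.4%), and BBS9 held most of its reads. Relative to back-splice reads BBS9 passed at both times, and BBS1 and BBS7 at neither. BBS7 had 2 reads at day 0 and 18 at day 45, and BBS1 had 0 and 13.

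The CFAP list, of proteins that are mostly known from motile cilia and flagella, had the largest ratio of day 45 to day 0 of the 8 lists, on few reads, with a level of 0.0211 to 0.0401 RPM at day 0 and 0.569 to 0.780 RPM at day 45. Of its 14 genes 10 were higher at day 45 (71.4%, all genes 61.9%) and 5 at day 90 (35.7%, all genes 43.4%), and 1 of the 14 had more than 3 reads at day 0. Relative to back-splice reads only CFAP47, CFAP54 and CFAP210 passed, at both times. CFAP47, CFAP54 and CFAP210 had no read at day 0 and 55, 44 and 34 at day 45. These were 18.9-fold, 15.1-fold and 11.7-fold the limit of 3 counts over the day 0 libraries. The lower ends of the exact intervals of the ratio were 14.8, 11.8 and 8.98. CFAP91 was the 1 tested member gene with a fitted value below 0 at day 45, on 1 read at day 0 and none at day 45.

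In the IFT list 10 of 12 genes were higher at day 45 (83.3%, all genes 61.9%) and 7 at day 90 (58.3%, all genes 43.4%). Relative to back-splice reads only IFT46 and IFT81 passed, at both times. Of the 12 genes 4 had more than 3 reads at day 0. The summed level at day 45 was 11.9 times that of day 0. IFT88 had 2 reads at day 0 and 40 at day 45, and IFT74, the partner of IFT81, had 9 and 54. TTC21B and WDR19, both of the IFT-A complex, did not pass, with 4 and 4 reads and with 2 and 6 reads. The NEK kinases had 5 of 6 genes higher at both times (83.3%, all genes 61.9% and 43.4%). NEK1 rose by 2.86 ± 0.473 (adjusted p = 1.58e-08) and NEK9 by 2.63 ± 0.543 (adjusted p = 6.59e-06) per sequenced read, and neither passed relative to back-splice reads (0.66 ± 0.354, adjusted p = 0.229, and 0.48 ± 0.460, adjusted p = 0.511).

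The summed levels of the pericentriolar and centriole lists were 6.16 and 5.94 times higher at day 45 in the mean, beside 6.33 times for all back-splice reads, and the lists were not tested against each other. At day 45, 10 of 11 (90.9%) and 14 of 17 (82.4%) of their genes were higher, against 61.9% of all genes. At day 90, 5 (45.5%) and 6 (35.3%) were higher, against 43.4%. The share of all genes higher at day 45 was 79.8% with at least 50 but under 200 reads, and 95.3% with at least 200. The centriole list made up 37.4% to 46.9% of member reads at day 0 and 27.9% to 34.9% in the later libraries, without overlap, while the transition zone list went from 3.07% to 3.65% at day 0 to 5.65% to 7.85% later. Per sequenced read CEP192 rose by 2.18 ± 0.407 (adjusted p = 5.59e-07), but it was at 0.05 with TMM and at -0.28 with DESeq2 size factors. CEP350 rose by 2.35 ± 0.422 (adjusted p = 2.01e-07), and was at 0.19 and -0.13 on these scales. CEP128, a protein of the subdistal appendage, rose by 1.99 ± 0.466 (adjusted p = 7.54e-05) and was at -0.19 and -0.52. CDK5RAP2, which anchors γ-tubulin complexes and is mutated in microcephaly, did not pass at day 45 (0.46 ± 0.687, adjusted p = 0.552), with 8, 7 and 3 reads at day 0 and 8, 11 and 5 at day 45. It had 6, 2 and 1 reads at day 90 (-1.05, adjusted p = 0.253). Relative to back-splice reads it was the 1 member gene that was lower at day 90 than at day 0 (-2.53 ± 0.707, adjusted p = 0.0084).

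Of the other TTC genes 8 of 12 were higher at day 45 (66.7%, all genes 61.9%) and 4 at day 90 (33.3%, all genes 43.4%), and TTC3 and TTC28 held most of their reads. A wider list of cilium and centrosome genes outside the symbol rule, 663 circRNAs of 67 genes, had 36 of 51 tested genes higher at day 45 and 27 at day 90 (70.6% and 52.9%), with 0 lower, and medians of 2.83 and 2.28.

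**Figure D5:**
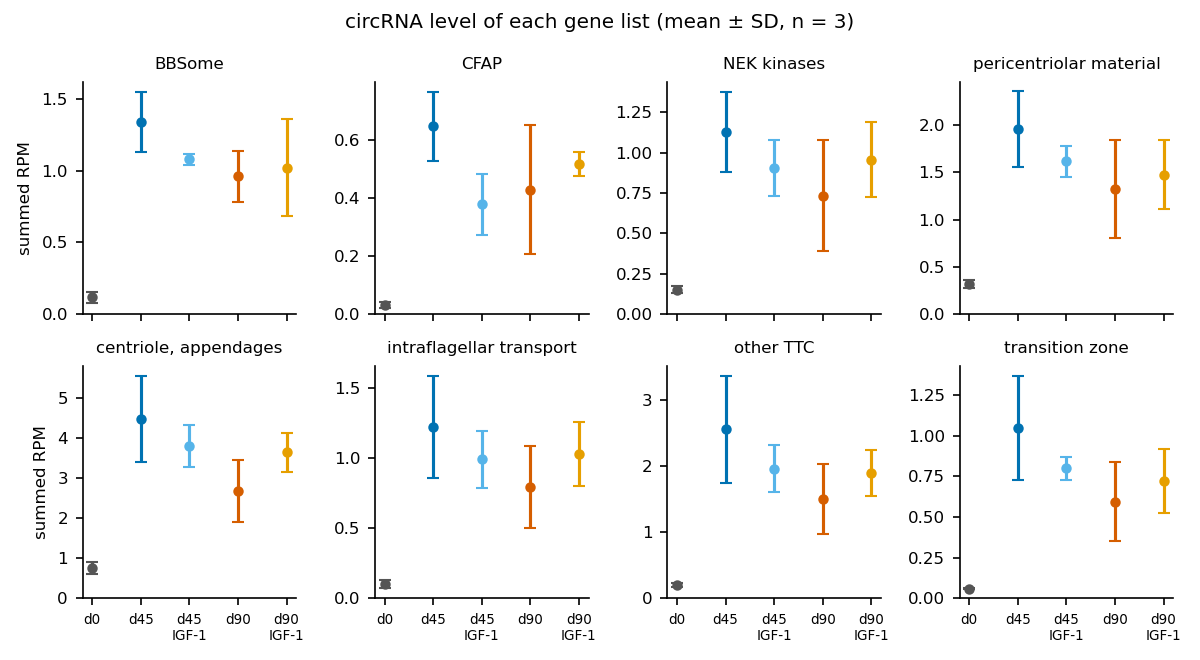
Summed RPM of each gene list in the 5 groups (mean ± SD, n = 3; each panel has its own scale from 0). All 8 lists are lowest at day 0, and their means are highest in untreated day 45 cultures.

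Between day 45 and day 90 no member was called. The summed level was 0.623 times that of day 45 (all back-splice reads, 0.649), with 0.308, 0.744 and 0.975 within replicates 1, 2 and 3. Of 292 circRNAs 0 passed and 22 had an unadjusted p under 0.05 in edgeR (all circRNAs, 9.61%), and DESeq2 also called 0. The background was 2 higher (0.016%) and 8 lower (0.064%) of 12498. At gene level 0 of 83 passed and 14 had an unadjusted p under 0.05 (all genes, 14%), and DESeq2 called 0, against 2 higher (0.0433%) and 11 lower (0.238%) of 4616. The gene nearest the threshold was NPHP4, with 44, 27 and 20 reads at day 45 and 5, 8 and 15 at day 90 (log2 change -1.88 ± 0.512, adjusted p = 0.0606). It passed without day 0 replicate 3 (adjusted p = 0.0495) and without day 45 replicate 3 (adjusted p = 0.0252), and its adjusted p was up to 0.804 when other libraries were left out (day 45 replicate 1). IFTAP had 25, 12 and 13 reads at day 45 and 1, 8 and 4 at day 90 (adjusted p = 0.128).

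With IGF-1 the summed level was 10.7, 13.3 and 10.7 RPM at day 45 and 13.5, 9.26 and 11.2 RPM at day 90, and treated and untreated libraries overlapped at both times. The treated mean was 0.797 times the untreated one at day 45, and 0.583, 0.992 and 0.907 times within replicates 1, 2 and 3. At day 90 it was 1.25 times the untreated one, but 2.40, 0.932 and 0.970 times within replicates, so that only the replicate 1 pair, which holds the untreated library with few back-splice reads, was above 1. The edgeR test called 0 members at day 45 (13 with an unadjusted p under 0.05, all circRNAs 4.58%, and 0 by DESeq2) and 0 at day 90 (11 with an unadjusted p under 0.05, all circRNAs 4.17%, and 0 by DESeq2), against 2 lower (0.016%) and 1 lower (0.008%) of all 12498 circRNAs. At gene level 0 of 83 passed at both times, with 6 and 2 at an unadjusted p under 0.05 (all genes, 4.51% and 3.25%) and 0 by DESeq2, against 1 lower (0.0217%) of all genes at each time. The smallest adjusted p at day 45 was that of NPHP4 (0.777), which had 10, 10 and 17 reads with IGF-1. The effect of IGF-1 at day 90 differed from that at day 45 for 0 members in edgeR (18 circRNAs with an unadjusted p under 0.05, all circRNAs 4.82%, 0 by DESeq2), and the smallest adjusted p was 0.704. The background was 0% of circRNAs and, at gene level, 0.0217%, where 0 member genes passed (5 with an unadjusted p under 0.05, all genes 4.38%, 0 by DESeq2).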

How the data were processed

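Total RNA of H9 cultures was sequenced in 15 libraries. The authors screened each library with PTESFinder against GENCODE v19 transcripts on hg19 and deposited raw back-splice counts per circRNA and library, neither normalised nor pooled. Library names were matched to the sample titles, with a, b and c read as replicates 1, 2 and 3. The list is guided by annotated exons, so circles with other ends are not in it. The 16 FIRRE amplicon samples, linear junctions and gene expression were not used here, so circular and linear RNA were not compared.

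To give RPM, each count was set against the number of reads sequenced for its library, as listed by the study. Its list names 2 lines day 90 replicate 1 and none replicate 2, so both untreated libraries were given the mean. Genes were taken from the transcript names in GENCODE 44 on GRCh37, which matched 48401 circRNAs.

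Each comparison was taken from 1 fit of edgeR 4.0.16 (R 4.3.3, glmQLFit and glmQLFTest) to the 15 libraries with a mean per group, sequenced reads as library sizes and features with at least 10 reads, for circRNAs and for counts summed per gene, with Benjamini-Hochberg adjustment over all features and a threshold of 0.05. SEs are the log2 change over the square root of F. Alternatives were TMM, DESeq2 1.42.0 size factors and Wald test, no filter, at least 50 reads and an exact binomial test. Further ones were the replicate block, a term for sequencing quality (Q30), other day 90 read numbers and each library left out. The binomial test set summed counts of 2 groups against their sequenced reads. It is the limit of Fisher's exact test for totals far above the counts. The tests were checked on simulated counts without a general rise, with changes placed only in features with many reads. This check does not cover members with few reads. Intervals are exact at 95% and cover counting error only. Introns were compared with blastn 2.17.0, and tables and figures used Python 3.11.15.

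Members and gene lists were chosen with earlier results of these data known. Named are the 15 members with the most reads, the top circRNA of each list, the 5 largest rises and falls per comparison among called members without overlap (all called where at most 10 were called), every member called lower after day 0, the 12 genes with the most reads and the 3 with the most circles. Others were named after their values were seen. One gene to which this rule applies is not reported here.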

Additional observations from a re-analysis of the deposited data

How the results depend on the processing

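The scale decides how many members pass, and their direction held in most fits. For circRNAs, the number higher at day 45 was 18 with TMM on back-splice totals, 6 with DESeq2 size factors, 81 without a filter and 73 with at least 50 counts. At day 90 it was 16, 9 and 42 for the first 3. TMM and DESeq2 size factors were each used on 292 members and 12498 circRNAs. Of all these circRNAs 783 and 321 were higher at day 45 and 738 and 360 at day 90. Without a filter all 1318 members were tested. With at least 50 counts only 45 members with 50 to 99 reads and 33 with at least 100 were tested. For genes, TMM gave 15 of 83 at day 45 and 16 (15 higher, 1 lower) at day 90, and DESeq2 size factors gave 14 (13 higher, 1 lower) at both. Of all 4616 genes TMM gave 497 higher and 146 lower at day 45, and 498 and 161 at day 90. DESeq2 size factors gave 339 higher and 205 lower at day 45, and 344 and 224 at day 90. The median of all circRNAs at day 45 was 2.87 with sequenced reads, 1.60 with TMM and 1.24 with DESeq2 size factors. That of members was 2.26 and 1.74 at day 45 and 1.84 and 1.56 at day 90 with these alternatives, and 2.00 and 1.14 among members with more than 3 counts in a day 0 library. The values below 0 listed next are those of members named by the rule and called with sequenced reads in the same comparison. Members not called there were left out of this list. At day 45 such values came from TMM and DESeq2 size factors for the longer CEP192 circle (-0.10 and -0.68), the PCNT circle (-0.082 and -0.67) and the CEP128 gene (-0.19 and -0.52). From DESeq2 size factors alone they came for the genes CEP192 (-0.28) and CEP350 (-0.13). At day 90 they came from both for the genes CEP128 (-0.26 and -0.54), CEP192 (-0.21 and -0.50) and CEP350 (-0.027 and -0.31), and from DESeq2 size factors for the CEP350 circle (-0.17). The exact binomial test on summed counts, which ignores the spread between replicates, called 20 members between day 45 and day 90. It called 3 between treated and untreated day 45 libraries, and 1 at day 90. The first assignment of day 90 reads made NPHP4 the 1 gene lower at day 90 than at day 45.

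Leaving out 1 library gave 85 to 132 circRNAs at day 45 and 39 to 76 at day 90, 56 to 68 and 36 to 48 genes, and 0 to 1 gene between day 45 and day 90. The Wald test of DESeq2, the Q30 terms and the other read numbers kept the remaining counts within 1.5 times. Of 1898 values of named members under an alternative, 1807 stayed on the same side of the threshold. Where the fit with sequenced reads called the member, these also kept direction. For members that it did not call, direction was not counted. Leaving out 1 library gave 1110 of the 1898 values. With TMM only 45 of 74 stayed, 23 kept direction but no longer passed, and 6 reversed. With DESeq2 size factors 30 of 74 stayed, 35 kept direction but no longer passed, and 9 reversed.

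The share of members without other TTC genes was 1.61%, 1.55%, 1.55% and 1.64% in untreated day 45, IGF-1 day 45, untreated day 90 and IGF-1 day 90 libraries. With circRNAs under retired transcript names, an alternative chosen after seeing the data, it was 2.18%, 2.08%, 2.08% and 2.19%. With at least 2 counts in a library it was 1.82%, 1.79% and 1.90% in the last 3 groups. The summed level at day 0 was 1.16 RPM with at least 2 counts, 1.53 RPM without other TTC genes and 1.90 RPM with retired names, and at day 45 with IGF-1 9.59 RPM without other TTC genes.

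With the replicate number as a block, 113 circRNAs and 65 genes were higher at day 45 and 61 and 41 at day 90, and 0 passed in the other comparisons. Whether the numbers pair the libraries was not tested. Of 30 pairs with the same number, 1 deviated together with a correlation over 0.1 (range -0.0491 to 0.117). Of 15 libraries, 6 were closest to their own number. Between untreated and IGF-1 libraries of day 45, replicates 1, 2 and 3 correlated at 0.117, 0.0704 and 0.0340, against -0.0860 to 0.0240 for unlike numbers. At day 90 these values were -0.00782, 0.0342 and 0.0553, against -0.0621 to 0.0281.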

Other observations

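A further 214 circRNAs with 2240 back-splice reads are named after transcripts that GENCODE 44 no longer lists, but begin and end at exon ends of 47 of the genes. They were left out of the values above. The largest was an ALMS1 circle (chr2:73784347-73786269, 461 reads), from the gene of a basal body protein mutated in Alström syndrome. It had 7, 0 and 0 reads at day 0, 54, 33 and 46 at day 45 and 20, 33 and 54 at day 90. A TTC13 circle (chr1:231090079-231097049) had 212 reads, and a CEP70 circle (chr3:138244332-138256189) 122. A circle of TTC8, also a BBSome subunit and known as BBS8, had no read at day 0 and 5, 5 and 8 at day 45.

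A CEP112 circle of this kind (chr17:64023619-64026141, 55 reads) was 1 of the 2 circRNAs of all genes called for IGF-1 at day 45 (adjusted p = 0.0246 from edgeR). It had 10, 10 and 8 reads in untreated and 0, 0 and 0 in treated day 45 libraries. At day 90 it had 0, 3 and 6 reads untreated and 6, 0 and 12 with IGF-1, and both groups overlapped. The CEP112 circles among the members were not called.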
